A study of Mus musculus with 3 samples.

Results

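The genes described here encode the proteins of the mitochondrial ribosome. They are defined by name, although the set was chosen with earlier results of these data known. The rule takes every autosomal protein-coding gene of the GENCODE M21 annotation whose symbol is Mrpl or Mrps followed by a digit. This gave 78 of 20807 autosomal protein-coding genes, 49 with an Mrpl and 29 with an Mrps symbol, on 17 chromosomes. Mitochondria keep a ribosome of their own, related to that of bacteria, whose small subunit reads the messenger RNA (mRNA) and whose large subunit forms the peptide bond. It makes the few proteins encoded in mitochondrial DNA, all of them membrane subunits of the respiratory chain and the ATP synthase. Its ribosomal RNAs come from mitochondrial DNA, but all its proteins are encoded in the nucleus, made in the cytosol and imported, so that their nuclear mRNAs need the usual cleavage and addition of a poly(A) tail. Some of the proteins have a counterpart in the bacterial ribosome and others exist in mitochondria only. The symbols do not follow the subunits throughout: the products of Mrps18a and Mrps30 belong to the large subunit, and that of Mrps36 to the 2-oxoglutarate dehydrogenase complex. With these corrections the genes comprised 51 of the large subunit, 26 of the small subunit and Mrps36.

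The RNA came from F121-9, an embryonic stem (ES) cell line of a hybrid between CAST and 129 mice, at passage 14. The series holds 1 group of 3 libraries, labelled as biological replicates 1, 2 and 3 and made from 500 ng of total RNA each by the QuantSeq form of PAS-seq, in which a read marks the 3′ end of a polyadenylated transcript. It has no treatment, no genotype contrast and no second cell type, and the labels do not say that the replicates were separate cultures. The spread and the p-values below therefore measure only how these libraries differ, which may be technical, and in RNA from bulk cells fewer expressing cells and less RNA per cell cannot be told apart.

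All libraries were given over the same 178115 sites, with 10147672, 13513327 and 13040620 reads at them in replicates 1, 2 and 3. The value of a site is in RPM, the reads at the site per 1000000 reads of the library, and because a transcript gives reads at its end only, levels of different genes could be compared without a correction for length. Replicate 3 had 216 reads outside the autosomes, against 821582 and 1012989 in replicates 1 and 2, and its RPM lay 0.14 and 0.13 (log2) above theirs at 8324 well-read autosomal sites. Of 9 ES cell markers, 8 reached 1 RPM, with a sum of 3067 to 3622 RPM per library, and Dppa5a lay below. Markers of fibroblast feeder cells summed to 50.8 to 134 RPM, of which Thy1 alone gave 81.3, 48.9 and 122.9 RPM, with Col1a1 at a mean of 2.27 RPM and Dcn and Postn at 0, those of neuroectoderm to 8.60 to 11.8, with Neurog2 at 0, those of mesoderm to 4.51 to 13.8 and those of primitive endoderm to 1.89 to 7.39.

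The windows of the 78 genes, from gene start to 1 kb past gene end on the gene's strand, held 455 of the listed sites. Of these, 20 sites in 7 windows were assigned to another gene or to none, among them reads of Nme3 in the window of Mrps34, and the other 435 were assigned to the genes described here. Cleavage usually follows a signal hexamer a short way upstream, of which AATAAA is the most frequent and ATTAAA the next. The 30 bases that end at the most used site are printed for 9 genes to show the kinds of signal found, 5′ to 3′ on the gene's strand, with the hexamer in capitals. Mrpl2, Mrps15 and Mrpl4 are among the most highly read genes with AATAAA, and Mrpl15, the most highly read of all, has ATTAAA. Mrpl12, Mrpl28, Mrps35 and Mrpl47 have rarer hexamers, and Mrpl51 has none of the 18 hexamers searched in the 40 bases upstream.
Mrpl2: ctggactctAATAAAatgtctcttgttttt
Mrps15: ccaagtgaactAATAAAgtctgttcccgtg
Mrpl4: gtcacattaaaAATAAAccctatttttcac
Mrpl15: gggtATTAAAgctttgggtctgttaccagc
Mrpl12: agaaAATATActattcaggctggggtgttc
Mrpl28: cgccacAGTAAAgtgtgttggtttgcttgg
Mrps35: cactgatttgaTATAAAtgggagaatcctt
Mrpl47: cagtttataAAGAAAtgttcttgtcaagtg
Mrpl51: tgatatgcccagtgctacatttactcatgc
In mm10 (GRCm38) these lie at chr17:46650102-46650131 on the + strand for Mrpl2, chr4:126055505-126055534 (+) for Mrps15 and chr9:21008798-21008827 (+) for Mrpl4. Mrpl15 lies at chr1:4776378-4776407 (-), Mrpl12 at chr11:120488672-120488701 (+) and Mrpl28 at chr17:26126582-26126611 (+). Mrps35 lies at chr6:147070870-147070899 (+), Mrpl47 at chr3:32727498-32727527 (-) and Mrpl51 at chr6:125193523-125193552 (+). All lie in the terminal exon, in the 3′ untranslated region (3′ UTR).

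The first question was at what level ES cells carry these mRNAs. All 78 genes had reads, and most were read well above the typical gene: 74 (94.9%) reached a mean of 1 RPM, 68 (87.2%) reached 10 RPM and 32 (41.0%) reached 100 RPM, against 55.2%, 35.4% and 7.68% of all autosomal protein-coding genes. The median gene stood at 82.2, 78.2 and 89.0 RPM in replicates 1, 2 and 3, or 83.1 ± 5.46 RPM (mean ± SD, n = 3, as for all values given with ± below). The median over all 11477 autosomal protein-coding genes at 1 RPM or more was 18.7 ± 1.37 RPM, that over 35 subunit genes of respiratory complex I was 191 ± 5.22 RPM, and that over 76 genes of the cytosolic ribosome was 341 ± 8.84 RPM. Together the genes of the mitochondrial ribosome held 7294, 7426 and 8435 RPM in the 3 libraries. Replicate 3 was the highest library for 42 of the 74 genes that reached 1 RPM, and for 30 of them after scaling to autosomal reads. Over all 11477 autosomal protein-coding genes at 1 RPM or more, these counts were 5605 and 4268.

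**Figure D1:**
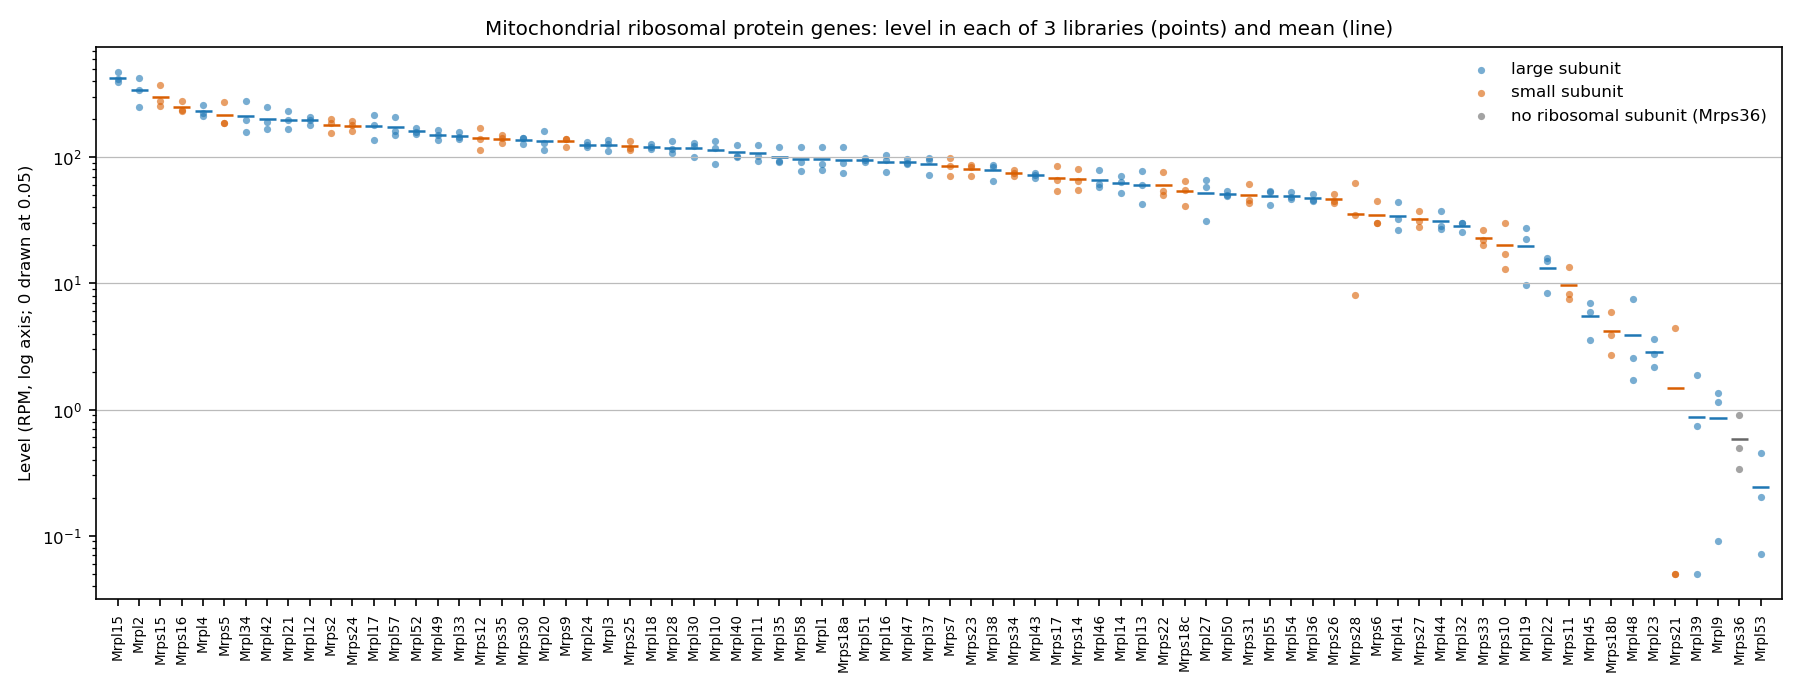
Level of each of the 78 genes in RPM (vertical log axis) in the 3 libraries (points) with the mean (line), ordered by mean and coloured by subunit. The means run from 427 RPM for Mrpl15 to 0.241 RPM for Mrpl53, 32 genes lie at 100 RPM or more and 10 lie under 10 RPM.

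The highest levels belonged to proteins that bacteria share, of both subunits, and among the 10 highest genes only Mrpl42 encodes a protein specific to mitochondria. Mrpl15, a large subunit protein, was read at 392, 416 and 473 RPM in replicates 1, 2 and 3 (427 ± 41.2). Mrpl2, a protein next to the peptidyl transferase centre, was read at 252, 338 and 425 RPM (338 ± 86.3). Mrps15, a small subunit protein that binds ribosomal RNA early in assembly, was read at 278, 252 and 372 RPM (301 ± 62.8). The order of these 3 was not fixed beyond their spread, because the highest library of Mrpl2 exceeded the lowest of Mrpl15 and the ranges of Mrpl2 and Mrps15 overlapped.

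Mrps16, a small subunit protein with a bacterial counterpart, followed with 235, 231 and 279 RPM. Mrpl4, which lines the tunnel through which the new protein leaves, had 225, 210.2 and 261 RPM. Mrps5, a protein near the decoding site, had 185, 272 and 188 RPM. Replicate 2 was the high library for Mrps5, while replicate 3 was high for Mrps16 and Mrpl4. Mrpl34, a small protein of the large subunit, had 195, 159.6 and 279 RPM. Mrpl42 had 191, 168 and 249 RPM. Mrpl21, another large subunit protein with a bacterial counterpart, had 198, 167 and 232 RPM. For these 3 genes replicate 2 was lowest and replicate 3 highest. Mrpl12, the stalk protein that contacts translation factors, had 198, 179 and 209.6 RPM, with a smaller spread (196 ± 15.3). From Mrps16 down to Mrpl12 each gene overlapped its neighbours.

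The genes between 100 and 200 RPM, beside Mrpl21 and Mrpl12, were Mrps2, Mrps24, Mrpl17, Mrpl57, Mrpl52, Mrpl49, Mrpl33, Mrps12, Mrps35, Mrps30, Mrpl20, Mrps9, Mrpl24, Mrpl3, Mrps25, Mrpl18, Mrpl28, Mrpl30, Mrpl10, Mrpl40, Mrpl11 and Mrpl35. Between 50 and 100 RPM lay 22 genes: Mrpl58, Mrpl1, Mrps18a, Mrpl51, Mrpl16, Mrpl47, Mrpl37, Mrps7, Mrps23, Mrpl38, Mrps34, Mrpl43, Mrps17, Mrps14, Mrpl46, Mrpl14, Mrpl13, Mrps22, Mrps18c, Mrpl27, Mrpl50 and Mrps31. Between 10 and 50 RPM lay 14: Mrpl55, Mrpl54, Mrpl36, Mrps26, Mrps28, Mrps6, Mrpl41, Mrps27, Mrpl44, Mrpl32, Mrps33, Mrps10, Mrpl19 and Mrpl22. Below 10 RPM lay Mrps11, Mrpl45, Mrps18b, Mrpl48 and Mrpl23, all above 1 RPM, and the 5 lowest genes.

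Each of the 5 lowest genes was read at or near the limit that the depth allows in at least 1 library. At this limit 0 reads still permit up to 3 reads, or 0.271, 0.202 and 0.213 RPM in replicates 1, 2 and 3. This limit covers counting error only, and amplified reads need not be independent molecules. Mrps21, a small subunit protein with a bacterial counterpart, had 49 reads in replicate 1 (4.42 RPM) and 0 in the others. Mrpl39, a large subunit protein specific to mitochondria, had 21, 11 and 0 exonic reads (1.89, 0.74 and 0 RPM). Mrpl9, which has a bacterial counterpart in the large subunit, had 1, 17 and 19 reads (0.0902, 1.14 and 1.35 RPM). These genes differed between libraries by more than their means, so that their place in the order was not settled. Mrps36 had 10, 5 and 7 reads (0.902, 0.337 and 0.498 RPM). Mrpl53, a large subunit protein specific to mitochondria, had 5, 3 and 1 reads (0.451, 0.202 and 0.0711 RPM). In no library did Mrps36 or Mrpl53 reach 1 RPM.

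Near-identical copies elsewhere in the genome moved with the low levels. How reads that match several places were treated is not given in the sources used here. The last 100 bases of 1 annotated transcript per gene matched more than 1 place of the genome, at 95% identity over 90% of the length, for 12 genes: Mrpl9, Mrpl18, Mrpl22, Mrpl23, Mrpl36, Mrpl41, Mrpl42, Mrps10, Mrps18b, Mrps18c, Mrps21 and Mrps36. Their values are uncertain for that reason. The end of Mrpl9 had 1803 matches, that of Mrps36 had 4 and those of the other 10 had 2. The median of these 12 genes was 14.5, 16.1 and 19.1 RPM in the 3 libraries, and that of the 66 genes with 1 match was 90.4, 90.8 and 98.0 RPM. Of the 10 genes under 10 RPM, 5 (50%) had such a copy, against 7 of the 68 others (10.3%). Copies did not go with a low level throughout, since Mrpl42 and Mrpl18 stood above 100 RPM, and Mrpl53, Mrpl39, Mrpl48, Mrpl45 and Mrps11 were low with 1 match. The matched bases are those of the annotated end, which is not always the end in use. Mrpl39, Mrpl48 and Mrps21, and among the well-read genes Mrpl1, Mrps16 and Mrps25, had 0 reads within 100 bases of it. For such genes the matches do not say whether the sites in use have copies. The part of the copies in the levels was not tested.

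**Figure D2:**
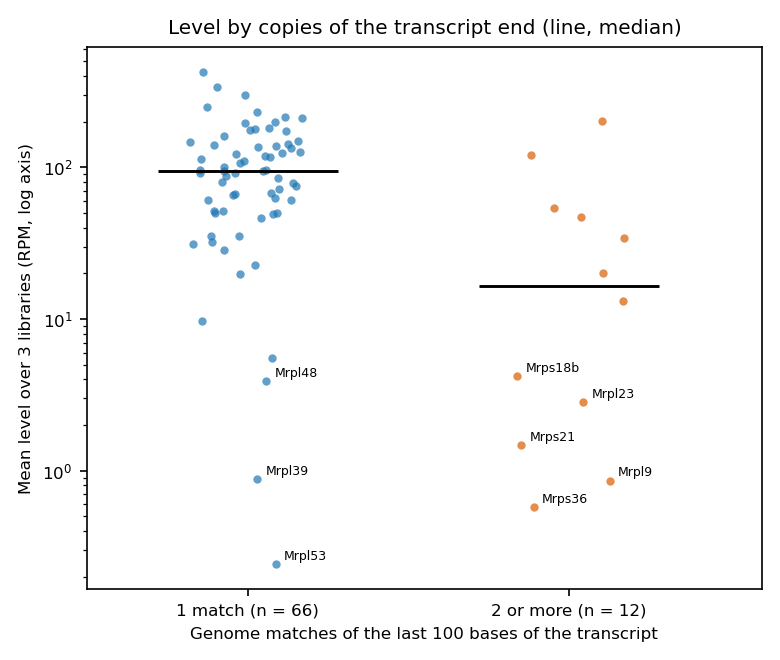
Mean level over 3 libraries (RPM, log axis) of each gene, split by whether the last 100 bases of its annotated transcript match 1 place of the genome (66 genes) or more (12 genes), with the median as a line. Of the 10 genes under 10 RPM, 5 are in each class.

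The genes of the large subunit were read at a higher median level than those of the small subunit in every library. The medians were 91.2, 92.7 and 97.7 RPM for the 51 large subunit genes and 71.1, 68.1 and 62.9 RPM for the 26 small subunit genes. The difference was 0.36, 0.45 and 0.65 on the log2(RPM + 0.1) scale (0.48 ± 0.15), and no test was made over genes. Within each subunit the proteins with a bacterial counterpart stood higher: 107 ± 11.6 RPM for 30 genes against 69.5 ± 5.05 RPM for 19 mitochondria-specific genes in the large subunit, and 80.8 ± 7.77 RPM for 16 against 55.7 ± 5.94 RPM for 10 in the small subunit. Mrps18a and Mrps30 were in neither class of the large subunit. The paralogs Mrps18a, Mrps18b and Mrps18c, relatives of the same bacterial protein, occupy different places in the ribosome. Of these, Mrps18c was counted with the bacterial counterparts, but Mrps18b, in spite of this relation, with the mitochondria-specific genes. The small subunit medians with Mrps18b in the other class were not computed. Mrps18a was read at 89.7, 75.3 and 120.2 RPM and Mrps18c at 65.0, 41.1 and 54.96 RPM, whereas Mrps18b was read at 5.95, 3.90 and 2.70 RPM. Mrps18b lay below both paralogs in every library, and Mrps18b and Mrps18c both have a second match of their ends.

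The level of a gene varied little between libraries in most cases. The coefficient of variation over the 3 libraries had a median of 15.7% over the 73 genes with at least 100 reads in the 3 libraries together, against 21.5% over 10126 autosomal protein-coding genes with as many. It was 12.4% in the cytosolic ribosome and 11.9% in complex I. The sets were not matched for level, and the part of the level in these values was not tested. Mrps28, a small subunit protein, varied most of those with a mean of at least 100 reads, with 8.03, 62.5 and 35.1 RPM (coefficient of variation 77.4%). Mrpl19, a protein at the subunit interface, had 9.74, 22.4 and 27.4 RPM (45.8%), and Mrps10, a protein of the head of the small subunit, had 12.99, 16.96 and 29.9 RPM (44.4%). For all 3 genes replicate 1 was the lowest library, and for Mrps28 replicate 2 was the highest.

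The next question was where in these genes the transcripts end. Nearly all reads lay in the terminal exon: 98.6%, 99.1% and 98.8% in replicates 1, 2 and 3 (98.8% ± 0.250), against 95.4% ± 0.260 for all autosomal protein-coding genes. Other exons held 0.686% ± 0.138, introns 0.291% ± 0.0873 and the 1 kb downstream 0.223% ± 0.0252. Introns held 1.47% ± 0.0979 of the reads of all genes. In the cytosolic ribosome the terminal exon held 99.5% of the reads and introns 0.116%, and in complex I 99.4% and 0.190%. By sites rather than reads, 297 of the 435 sites (68.3%) lay in the terminal exon and 64 (14.7%) in introns.

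Mrps28 had the most intronic reads, 309 of the 884 of all the genes. Of its reads 45.1%, 5.31% and 27.2% lay in introns in replicates 1, 2 and 3 (25.8% ± 19.9), nearly all at chr3:8880683, where 66, 46 and 180 reads ended with none of the 18 hexamers upstream. Its 3′ UTR site at chr3:8802146, behind AATAAA, had 89, 928 and 474 reads. The intronic share was high in replicate 1, where the 3′ UTR site was least read. Mrpl48, a large subunit protein specific to mitochondria, had an intronic share of 34.5%, 13.6% and 0%, from 16 reads in all. Mrpl13, which has a bacterial counterpart, had 4.44%, 1.53% and 1.87%. Mrps10 had 4.0%, 3.08% and 0%, and Mrps27, a small subunit protein of the pentatricopeptide repeat family, had 3.87%, 0% and 0.509%. Of the 73 genes with at least 50 reads outside introns, 3 had a mean intronic share above 2.5%. Some of the 5 lowest genes, which have fewer, had large shares. Mrpl39 had 87 intronic reads, which were 54.3%, 74.4% and 100% of its reads in the 3 libraries. Mrps36 had 36, which were 78.3%, 0% and 0%.

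Most genes ended at 1 dominant site. Over the 73 genes with at least 50 reads, the most used site held a median of 97.0%, 97.3% and 96.6% of the exonic reads of its gene in the 3 libraries (97.0% ± 0.346), against 91.8% ± 0.831 for all 11181 genes with as many reads. Only 1 site held at least 5% of the reads in 51 of 73 genes (69.9%), against 45.8% of all genes. Both values were higher still in the cytosolic ribosome and in complex I. There the most used site held a median of 99.1% and 99.8% of the reads, and 72.4% and 90.6% of the genes had a single such site. Mrps16 and Mrpl4 had 100% of their exonic reads at such a site.

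The 3′ UTRs in use were short. The most used site lay a median of 186 bases past the stop codon (quartiles 114 and 285), against 668 bases (275 and 1477) over 10558 autosomal protein-coding genes. It lay under 200 bases from the stop codon in 40 of 73 genes (54.8%), against 18.2% of all genes. The genes of the cytosolic ribosome and of complex I had shorter medians of 55 and 85.5 bases. The 3′ UTR of Mrps15 and that of Mrpl52 had 17 bases, the shortest here, while Mrps2 with 1178 bases and Mrpl45 with 1352 bases had the longest. Mrpl15 ended 86 bases and Mrpl2 201 bases past the stop codon.

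**Figure D3:**
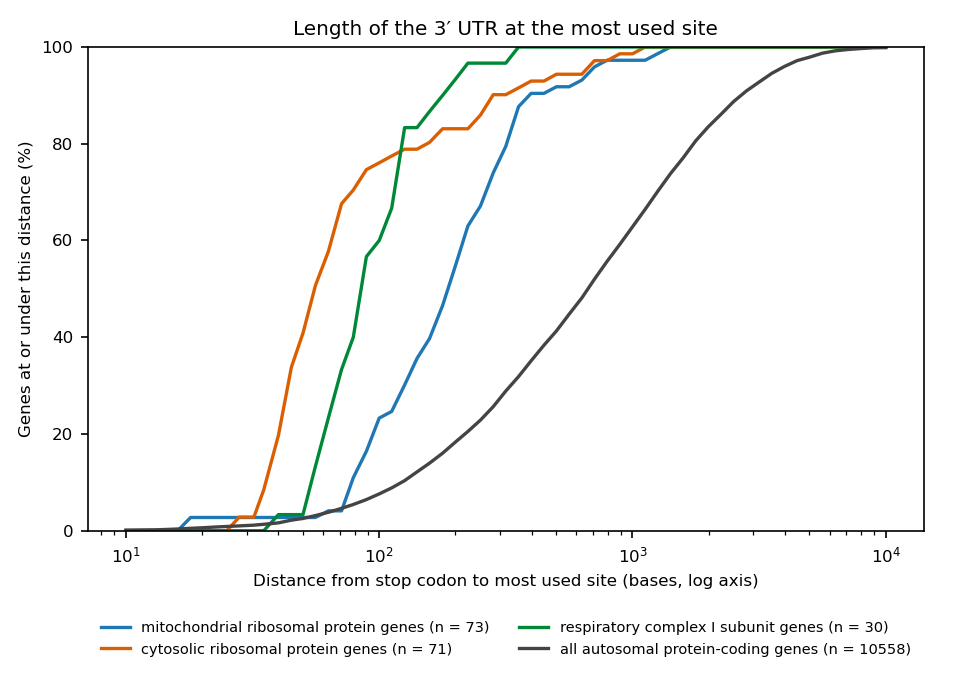
Share of genes (%) whose most used site lies at or under a given distance from the stop codon (bases, log axis), for genes with at least 50 reads. The median of the mitochondrial ribosomal protein genes, 186 bases, lies between those of the cytosolic ribosome (55) and complex I (85.5) and that of all genes (668).

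Many of these short ends lay far inside the annotated gene. The most used site was within 24 bases of an annotated end of a coding transcript in 45 of 73 genes (61.6%), against 70.7% of all genes. It lay 100 bases or more before the nearest such end in 25 of 73 (34.2%), against 19.6% of all genes, and 1000 bases or more before it in 15 (20.5%), against 9.15%. Those 15 were Mrpl1, Mrpl15, Mrpl19, Mrpl32, Mrpl35, Mrpl47, Mrpl50, Mrpl51, Mrpl57, Mrps5, Mrps16, Mrps25, Mrps26, Mrps30 and Mrps35. In Mrps25, a small subunit protein specific to mitochondria, the site with 89.7% of the reads lay 186 bases past the stop codon and 5311 bases before the annotated end. In Mrpl15 the site with 92.4% of the reads lay 3167 bases before it, and in Mrps16 the site with 100% lay 1911 bases before it. In the cytosolic ribosome 3 of 76 genes (3.95%) and in complex I 0 of 32 had their most used site so far inside.

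The signals upstream of the sites were then compared. AATAAA lay within 40 bases upstream of sites with 60.2%, 59.9% and 61.9% of the reads in replicates 1, 2 and 3 (60.6% ± 1.10), and ATTAAA without AATAAA at 19.7% ± 0.657. Another of the 18 hexamers was there for 16.3% ± 0.750 and none for 3.34% ± 0.0758. For all autosomal protein-coding genes these shares were 67.6%, 14.4%, 11.9% and 6.07%. AATAAA was thus behind fewer reads, and both ATTAAA and the rarer hexamers behind more, in each library. These shares weigh genes by their reads. The ATTAAA site of Mrpl15 alone held 368, 387 and 428 of the 7294, 7426 and 8435 RPM of the set in replicates 1, 2 and 3. ATTAAA without AATAAA stood at 18.7% of the reads in complex I and at 7.17% in the cytosolic ribosome. In a control window of the same length downstream, AATAAA stood at 1.15% of the reads, a lone ATTAAA at 7.32%, another hexamer at 7.78% and none at 83.8%. The same window over all genes held 2.28%, 1.32%, 14.01% and 82.4%, so that ATTAAA was also more frequent there for the genes of the mitochondrial ribosome, and 69.8% ± 1.502 of their reads with ATTAAA there came from 1 site of Mrpl15 and 27.8% ± 1.87 from 1 site of Mrps24. By genes, the most used site followed AATAAA in 43 of 73, ATTAAA in 14, another hexamer in 13 and none in 3. These are 58.9%, 19.2%, 17.8% and 4.11%, against 64.0%, 15.7%, 14.6% and 5.74% of all genes with at least 50 reads. AATAAA marked the most used site of 19 of 25 small subunit genes and 24 of 48 large subunit genes, a difference that was not tested.

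Some of the genes ended wholly at sites without a main signal. Mrpl12, Mrpl28 and Mrpl22 had 100% of their reads at sites lacking both AATAAA and ATTAAA in all 3 libraries, Mrps35 had 99.5% and Mrpl47 had 98.6%. The most used site of Mrpl12 followed AATATA and held 105, 96.0 and 116 RPM, and a second site 52 bases on followed TATAAA and held 88.6, 79.6 and 88.3 RPM. Mrpl28, a large subunit protein, used a site behind AGTAAA with 134, 107 and 115 RPM. Mrps35, a small subunit protein specific to mitochondria, used a site behind TATAAA, and Mrpl47 a site behind AAGAAA, both among the sequences shown above. In Mrpl47 the marked AAGAAA overlaps a TATAAA, which is not marked there. Mrpl22, a protein of the exit tunnel, was read at 15.97, 15.1 and 8.32 RPM in the 3 libraries and had AACAAG 35 bases upstream. Apart from Mrpl22, these genes were as highly read as many with AATAAA. Mrpl12 was the tenth of the set, Mrps35 stood at 140 ± 10.1, Mrpl28 at 119 ± 13.8 and Mrpl47 at 91.7 ± 4.25 RPM. Mrpl22 was low, at 13.1 ± 4.20 RPM.

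The last comparison asked, within each library, whether genes with several ends in the terminal exon used the nearest or the farthest one more. The end sites of the terminal exon that hold 5% or more of a gene's reads were set against each other, distal over proximal, by limma on log2 ratios with 0.05 RPM added, over 5372 autosomal genes. Among 20 testable genes, 7 used the proximal site at least 2-fold more at an adjusted p under 0.05 and 1 used the distal site more. Over all genes, 7.26% were called with the proximal site higher and 17.9% with the distal site higher. Mrpl17, Mrpl19, Mrpl24, Mrpl35, Mrps7, Mrps24 and Mrps30 were called proximal and Mrps2 distal. The distal sites of Mrpl17, Mrpl24, Mrpl35, Mrps7 and Mrps24 lie in sequence masked as repeats in the genome. Those of Mrpl19, Mrps30 and Mrps2 do not, and in Mrpl19 the proximal site does. Reads there may match several places, and the part of this in the ratios was not tested. The sites of a called gene of each kind, and of Mrpl24, where both sites follow AATAAA, are printed with the hexamer in capitals.
Mrps2 proximal: ttctccaccAATAAAatccatgcttagggg
Mrps2 distal: tacAGTAAAccacctggtgtcagactctct
Mrps24 proximal: tgttgAATAAAaccctgatcatgttttgtc
Mrps24 distal: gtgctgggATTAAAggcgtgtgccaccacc
Mrpl24 proximal: tctaaaacaccAATAAAgagacttgagagc
Mrpl24 distal: taagaAATAAAaattacatggtatttatag
In mm10 the sites of Mrps2 lie at chr2:28470924-28470953 and chr2:28471157-28471186 (+), those of Mrps24 at chr11:5704324-5704353 and chr11:5704171-5704200 (-) and those of Mrpl24 at chr3:87923404-87923433 and chr3:87923635-87923664 (+).

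Mrps2, a small subunit protein with a bacterial counterpart, was read at 41.9, 35.8 and 27.2 RPM at the proximal and at 142, 131 and 112 RPM at the distal site in replicates 1, 2 and 3. The distal site had 77.1%, 78.5% and 80.4% of the reads of the pair (78.7% ± 1.65), a log2 ratio of 1.89 with a standard error (SE) of 0.38 (limma, adjusted p = 0.0467). The distal site of Mrps2 was higher in all 3 libraries, although AATAAA lies at the proximal site and the rarer AGTAAA at the distal one.

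Mrps24, a small subunit protein near the entry of the mRNA, was read at 158, 140.1 and 174 RPM at the proximal and 22.4, 20.8 and 17.6 RPM at the distal site. The log2 ratio was -2.95 (SE 0.40, limma, adjusted p = 0.0372). Here the proximal site has AATAAA and the distal one, 153 bases on, ATTAAA. Mrpl17, a large subunit protein, was read at 98.9, 133 and 139 RPM at the proximal and 8.57, 9.96 and 20.3 RPM at the distal site (log2 ratio -3.34, SE 0.44, limma, adjusted p = 0.0372). Mrpl24, which has a bacterial counterpart, gave 15.2%, 10.6% and 11.1% of the reads of its pair to the distal site, 231 bases on (log2 ratio -2.85, SE 0.40). Mrpl17 ranged from 6.98% to 12.8% of the reads of its pair at the distal site, so that no library of these genes came near an even split.

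Mrpl35, a large subunit protein, gave 13.5%, 6.15% and 13.8% of the reads of its pair to the distal site (log2 ratio -3.08). Its proximal site is followed by A-rich sequence, where priming inside the transcript is possible. Mrps30, a large subunit protein in spite of its symbol, gave 20.0%, 13.2% and 10.7% of the reads of its pair to a site 43 bases on (log2 ratio -2.59). Mrps7, a small subunit protein at the decoding site, gave 21.5%, 9.22% and 7.33% of the reads of its pair to the distal site (log2 ratio -2.93). In Mrps7 and Mrps30 the distal site was most used in replicate 1. Mrpl19, with 8.0%, 14.6% and 21.6% of the reads of its pair at a site 2850 bases on, had a log2 ratio of -2.57. Its share there was lowest in replicate 1. Mrpl19 had 5 sites with at least 5% of its exonic reads, and the proximal one held a mean of 41.4%. Against its second most used site, 2714 bases on, the log2 ratio was -0.91 and Mrpl19 was not called (limma, adjusted p = 0.132). For the end sites, the adjusted p of these 7 genes lay between 0.0372 and 0.0452 (limma).

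The other 12 genes were not called. The mean distal share of the reads of the pair was 93.2% ± 11.8 for Mrps10, 93.1% ± 11.9 for Mrpl45, 63.2% ± 7.05 for Mrps17 and 54.0% ± 5.11 for Mrpl36. It was 44.8% ± 1.34 for Mrpl12, 34.8% ± 3.47 for Mrpl50, 30.8% ± 5.76 for Mrpl49 and 27.9% ± 4.55 for Mrps14. It was 26.3% ± 8.33 for Mrpl40, 24.6% ± 42.7 for Mrpl48, 19.5% ± 5.94 for Mrpl10 and 7.78% ± 7.07 for Mrpl55. The low count of Mrpl48, with 162 reads at all its sites, shows in its spread, and in Mrps10 and Mrpl45 the proximal site had reads in 1 library only.

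Called or not, 15 of the 20 genes (75%) had a log2 ratio below 0, against 33.5% of the 5372 genes, and 14 (70%) were below 0 in every library, against 21.1%. The median log2 ratio was -1.64, against 1.30 over all genes tested. The pairs were also closer together, with a median of 250.5 bases between the sites against 1020.5, and the part of this distance in the ratios was not tested. AATAAA lay at the proximal site in 10 of 20 pairs (50%) and at the distal site in 7 (35%), while over all 5372 pairs it lay at the proximal site in 32.5% and at the distal site in 60.6%. Without any 1 of the 3 libraries limma called no gene at all among the 5372, and 6 to 11 of the 20 genes then had an unadjusted p under 0.05. With a trend of the variance on the level, chosen after seeing the data, limma called 3 of the 20 distal and 11 proximal, against 30.3% and 12.1% of all genes, and edgeR on whole reads recovered from the RPM called 2 and 11, against 27.3% and 11.2%, with Mrpl19 lost in both (adjusted p = 0.0551 and 0.0651).

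**Figure D4:**
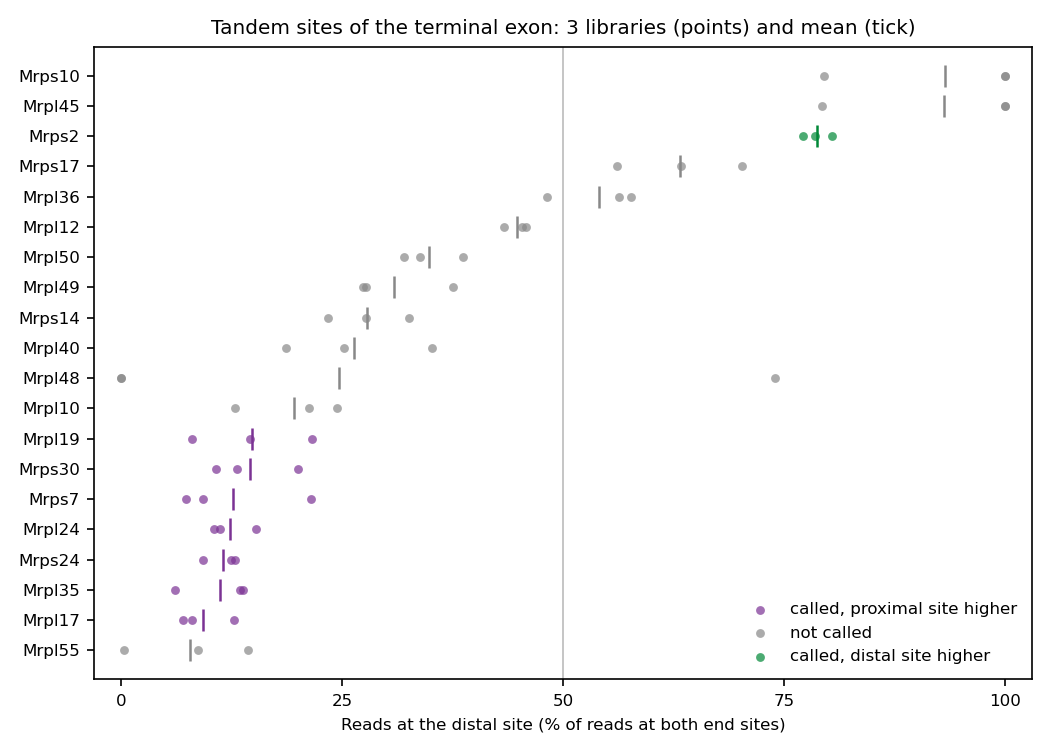
Reads at the distal site as a share (%) of the reads at both end sites of the terminal exon for the 20 testable genes, in 3 libraries (points) with the mean (tick), coloured by the call of limma. The 7 genes called proximal have means of 9.24% to 14.8% and Mrps2, called distal, has 78.7%.

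Genes that act with the mitochondrial ribosome were read at a lower median level than the 83.1 RPM above in 5 of 7 roles, and at a higher one among the ribosomal proteins that carry other symbols and the genes of mRNA binding and membrane insertion. The 5 ribosomal protein genes under other symbols all reached 10 RPM and had a median of 162 RPM: Dap3, a small subunit protein that binds GTP, at 222 ± 8.45 RPM, Aurkaip1 at 196 ± 34.1, Ptcd3 at 162 ± 22.8, Chchd1 at 83.6 ± 7.90 and Gadd45gip1 at 64.1 ± 8.77. Like 7 of the genes above, Dap3 was called proximal (limma log2 ratio -3.73, adjusted p = 0.0372), with its sites 41 bases apart.

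Of 6 factors of initiation and elongation, 5 reached 10 RPM, with a median of 18.4 RPM. Tsfm, the exchange factor of the elongation factor Tufm, stood at 59.9 ± 9.66 RPM and Tufm at 18.05 ± 5.204 RPM. Guf1 at 19.1 ± 4.93, Mtif3 at 18.7 ± 2.37, Mtif2 at 13.5 ± 2.85 and Gfm1 at 7.24 ± 1.45 RPM were like Tufm or below it. Of 5 factors of termination, recycling and rescue, 4 matched an M21 symbol and 1 of them reached 10 RPM. Mtrf1l, a release factor, stood at 13.9 ± 6.06 RPM, the recycling factors Mrrf and Gfm2 at 7.48 ± 3.38 and 6.98 ± 2.72, and Mtrf1 at 4.82 ± 1.79 RPM.

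Of 18 genes of assembly and of ribosomal RNA modification, 13 reached 10 RPM, with a median of 26.2 RPM. Mpv17l2 (90.2 ± 17.7 RPM), the RNA helicase Dhx30 (87.3 ± 17.1) and Ngrn (72.0 ± 5.18) were the highest, and Mterf3 (3.05 ± 1.27), Mtg2 (1.69 ± 0.592) and the methyltransferase Tfb1m (0.226 ± 0.138) the lowest. Of 4 genes of mRNA binding and membrane insertion, 3 reached 100 RPM, and the median was 119.8 RPM: Lrpprc, which binds mitochondrial mRNAs, at 370 ± 83.9 RPM, its partner Slirp at 127 ± 25.9, the insertase Oxa1l at 113 ± 23.9, and below them the translational activator Taco1 at 9.57 ± 3.75. Of 4 genes of mitochondrial transcription, Tfam stood at 55.9 ± 13.8 RPM, the polymerase Polrmt at 27.2 ± 2.91, Tefm at 5.08 ± 3.41 and Tfb2m at 0, 1.95 and 0 RPM. Lrpprc was thus in the range of Mrpl15 and Mrpl2, and Tfb1m and Tfb2m in that of the lowest ribosomal protein genes.

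Among 7 nuclear regulators of mitochondrial genes, 5 reached 10 RPM. Gabpb1 (67.8 ± 16.2 RPM), Yy1 (67.3 ± 1.67) and the coactivator Pprc1 (64.3 ± 12.4) were the highest, and Nrf1 (21.8 ± 7.66), Ppargc1b (5.03 ± 2.61) and Ppargc1a (0, 0 and 3.84 RPM in the 3 libraries) the lowest. In the test of tandem sites 18 of these related genes had a pair, of which 5 were called distal and 4 proximal (limma, 17.9% and 7.26% of all genes). Mterf4, Nsun4, Gfm1, Tefm and Gabpb1 were distal, and Mrrf, Noa1, Pprc1 and Dap3 proximal.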

How the data were processed

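Poly(A) sites of 3 libraries of 1 group were used, numbered as in the labels. The deposited files give RPM per site, and the build (mm10) and annotation (M21) are those named in the deposited text files. The unit was read from the values, and 100% of them were whole multiples of 1 read within 0.01 reads. The deposited files also give the fraction of libraries with a read, the mean RPM, a region code that the files do not explain, and signal hexamers. Recomputed means and fractions equalled the deposited ones at 178115 sites. No aligner or site caller is named (not given in the sources used here).

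Sites were assigned on their strand to terminal exons, other exons, introns or the 1000 bases downstream, in this order, with protein-coding genes first, and 71 tied sites were left out. A gene's level was the sum of RPM at its exonic and downstream sites. Hexamers (18) were searched in GRCm38 in the 40 bases upstream and in a control window from base 100 downstream, and 181936 deposited hexamers were all found there. Where several hexamers were present, AATAAA was named first, then ATTAAA, then the others in a fixed order. Sites were A-rich when the next 20 bases had 12 or more A, or 6 A in a row. Transcript ends of 100 bases were aligned with blastn 2.17.0.

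Tandem sites were compared by limma 3.58.1 (R 4.3.3) on log2((RPM + 0.05)/(RPM + 0.05)) in genes with at least 50 reads, with Benjamini-Hochberg adjustment over all 5372 genes, an adjusted p under 0.05 and a 2-fold ratio. This scale understates ratios of rarely used sites. The test was also tested on simulated data. edgeR 4.0.16 on the recovered reads was an alternative. All other values are descriptions with no test. Genes given in full were the 10 highest, the 5 lowest, the 3 most variable, those called, the 5 with the largest intronic share, the 5 with the largest share without a main signal and the Mrps18 paralogs. Both of these shares were ranked among genes with at least 50 reads outside introns. Of related genes, the 3 highest and 3 lowest of each role were given. The members, lists and roles were chosen with earlier results of these data known.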

Additional observations from a re-analysis of the deposited data

How the results depend on the processing

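The main limits are 1 group of 3 libraries, unknown treatment of reads that match several places, and depth. The 5 lowest genes each had under 50 reads outside introns in the 3 libraries together. Scaled to autosomal reads, the median level was 95.5 RPM instead of 83.1. The share of reads behind AATAAA (60.6%) was 61.8% with 60 bases searched and 58.4% with each gene counted once. With the deposited region code the terminal exon share was 99.1% and that of other exons 0.313%, instead of 98.8% and 0.686%. Counts of tandem calls, 1 distal and 7 proximal at the start, were 12 and 18 of 38 genes with a site minimum of 1%, and 0 and 0 of 19 with 10%, where limma called none of 4102 genes and 13 of the 19 had an unadjusted p under 0.05. With the 1% minimum other sites formed the pair, and 4 genes without a call at 5% were called in the opposite direction: the log2 ratio became 3.72 for Mrpl10, 4.64 for Mrpl12, 4.13 for Mrpl50 and -7.08 for Mrps17. The counts of calls were 3 and 11 with 0.5 RPM added, 0 and 4 with sites at least 100 bases apart, 0 and 5 with no minimum of reads, and 2 and 10 with no library block. Between the 2 most used sites of each gene they were 1 and 7 of 20, where Mrpl19 and Mrps7 were not called (limma, adjusted p = 0.132 and 0.0637). Without 1 replicate they were 0 and 0 each time. Among alternatives chosen after seeing the data, the variance trend gave 3 and 11 (1 to 2 and 8 to 11 without 1 replicate), edgeR 2 and 11, and downstream sites included 0 and 7. The 8 genes called kept their direction in every alternative in which they had a pair. No paired analysis was possible because the series has 1 group, and the library entered only as the unit within which both sites were compared.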

Other observations

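Promoters from RefSeq (GRCm38.p6; 250 bases before to 50 after a start) were matched for 69 of the 78 genes and searched on both strands for 3 motifs linked to mitochondrial genes. CCGGAAG, the core bound by ETS factors such as Gabpa, was present in 26 of 69 genes (37.7%), against 13.6% of 15687 autosomal protein-coding genes. The palindromic motif of Nrf1 was in 13 genes (18.8% against 7.62%). AAGATGGCG, the motif of Yy1, was in 8 genes (11.6% against 2.24%). A match says that the letters are present, not that a factor binds, and no test was made.

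Repeat-masked sequence, read from the lower-case letters of the GRCm38 genome and looked at after seeing the site sequences, covered at least 15 of the 30 bases before the distal end site in 11 of the 20 tandem pairs (55%), against 35.5% of 5182 protein-coding genes. It did so before the proximal site in 5 of 20 pairs (25% against 26.9%) and before the most used site in 15 of 73 genes (20.5% against 31.1%). The distal sites of Mrps24, Mrpl17, Mrpl55, Mrps10 and Mrpl45, each behind ATTAAA, were among those in masked sequence. So were those of Mrpl24, Mrpl35 and Mrps7, behind AATAAA and called proximal like Mrps24 and Mrpl17. The distal sites of Mrpl19 and Mrps30, also called proximal, were not. The kind of repeat was not determined, and no test was made.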
